A study of Mus musculus with 8 samples.

Results

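Expression of the enzymes and transporters that build and sulfate glycosaminoglycans was examined in skeletal cells sorted from mouse femoral fracture calluses. The set listed 44 genes, and each probe set annotated with exactly 1 gene symbol from that list was taken, whatever its values. Of the listed genes, 42 were measured by 79 probe sets, out of 18193 genes named on the arrays. Xylt1 and Ndst1 were not analysed here. The samples were 4 arrays of skeletal stem cells (SSCs), which renew themselves and give rise to the skeletal lineage, and 4 arrays of bone, cartilage and stromal progenitors (BCSPs), the next stage below them. Both were sorted as CD51+ cells without CD45, Ter119, Tie2, Thy1 or 6C3, SSCs being CD105- and CD200+ and BCSPs CD105+, so that CD105 split the populations by design. Donors were male C57/Bl6 mice of 10 to 12 weeks with a pinned fracture through both cortices of the femur. The labels give day 7 after fracture, while the methods text of the study gives a later day. Each of 4 numbered experiments gave 1 SSC and 1 BCSP array from 10000 sorted cells per population. The study attributes the SSCs and BCSPs on the arrays to 4 different mice.

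Glycosaminoglycans are long sugar chains that swell cartilage matrix with water and hold growth factors at the cell surface. Chondroitin, dermatan and heparan sulfate are built in the Golgi on a serine of a core protein, starting from a shared linker of 4 sugars, and are then sulfated by enzymes that all draw on one sulfate donor, PAPS. Hyaluronan has no core protein and no sulfate and is made at the plasma membrane. Cartilage is rich in chondroitin sulfate, and defects of sulfate uptake or PAPS synthesis are known causes of skeletal dysplasia.

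The value given for each gene is the activity score of Gene Expression Commons, which runs from about -100 to 100 points, with 0 at the threshold that separates low from high arrays for that probe set in a large public collection. A gene above 0 is called active here. Because each probe set is judged by its own range over that collection, the score does not compare mRNA amounts between genes, and it levels off at both ends. A gene with several probe sets was represented by the one with the highest mean over the 8 arrays.

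The arrays were alike in the share of active probe sets, with 29.0% to 31.0% of 45037 probe sets above 0 on each. Skeletal markers fitted the label, with 7 of 8 measured (Sox9, Col2a1, Acan, Sp7, Col1a1, Itgav and Cd200) active on all 8 arrays. Eng, which encodes CD105, averaged -45.6 in SSCs and 12.8 in BCSPs. Itgav and Cd200 encode the sorting antigens CD51 and CD200, so their scores and that of Eng were partly fixed by the sort. Cd200 was active on BCSP arrays as well, although CD200 was a sorting criterion of SSCs only. Of 26 markers of macrophages, neutrophils, lymphocytes, erythroid, endothelial and muscle cells, 0 were active on all arrays, 23 on none, and Laptm5, Ighm and Hba-a1 on some. The median of these markers of other cells lay between -63.7 and -51.2 on SSC arrays and between -62.1 and -45.0 on BCSP arrays. The 6 endothelial ones were below 0 throughout, with a median of -81.3 in SSCs and -59.7 in BCSPs. Both arrays of experiment 3 stood apart in the actin controls, whose 3' score exceeded the 5' score by 59.6 and 64.9 points, against 23.1 to 44.2 points on the other 6 arrays. The Gapdh controls did not single that experiment out, since the same difference was 54.7 and 49.1 points there, 53.9 and 71.9 points in experiment 4 and 21.3 to 44.2 points in experiments 1 and 2.

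Most glycosaminoglycan genes were active in both populations, and 27 of the 42 (64.3%) scored above 0 on all 8 arrays, beside 25% of all 18193 genes. Scores above 90 on all 8 arrays were reached by 10 of them (23.8%), beside 2.71% of all genes. These 10 were Chsy1, Chsy3, Csgalnact1, Csgalnact2, Chst11, Sulf1, Papss2, Slc26a2, Slc35d1 and Ugdh. Another 9 (21.4%, beside 43.5% of all genes) were above 0 on none of the arrays, namely Xylt2, Chst13, Extl3, Ndst2, Ndst4, Hs3st1, Hs6st1, Hs6st2 and Has3. The remaining 6 were active on some arrays, with B3gat3 on 2, Chpf on 7, Chst3 on 4, Chst7 on 7, Ust on 3 and Ndst3 on 1. No test was made of these shares, which depend on the probe set, and 18 of the 42 genes but 9183 of all 18193 had a single one. RNA came from pools of cells, so that fewer cells expressing a gene and less RNA per cell cannot be told apart. With each gene taken at its lowest probe set, 15 genes (35.7%) were active throughout, beside 10.3% of all genes. On the single arrays the median of the 42 genes was 86.6, 80.7, 65.2 and 77.0 in SSCs of experiments 1 to 4 and 84.0, 78.7, 66.8 and 73.0 in BCSPs, so that it was lowest in experiment 3 in both populations. The median of all 18193 genes was also lowest there, at -25.4 in SSCs and -21.6 in BCSPs, against -17.9 to -12.1 and -15.9 to -11.0 in the other experiments.

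**Figure D1:**
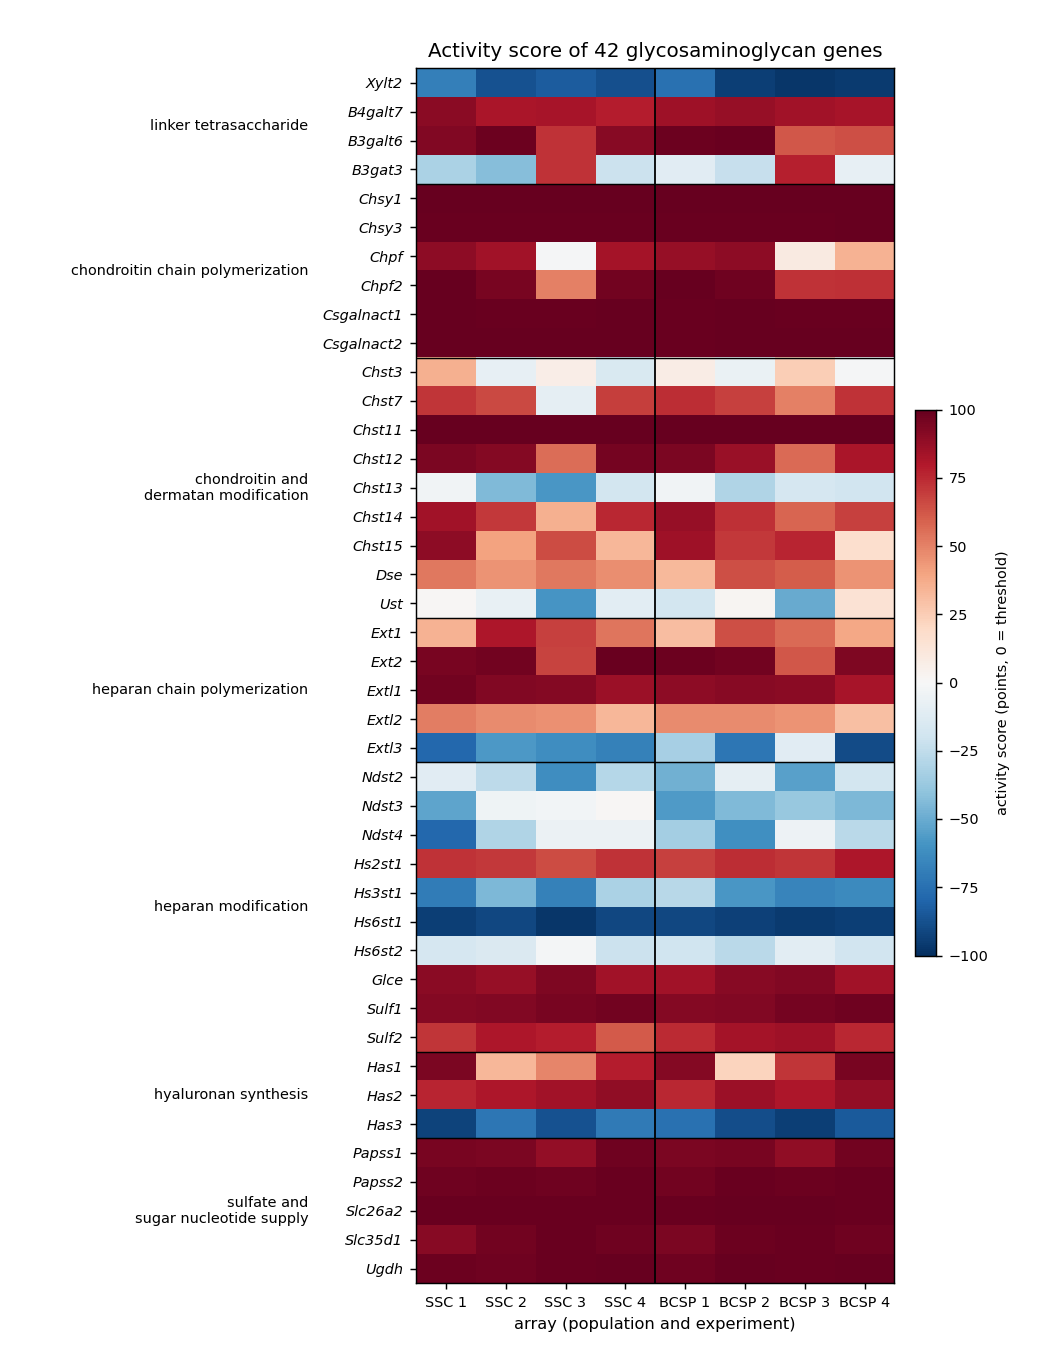
Activity score in points (colour, from -100 in blue through 0 in white to 100 in red) of the 42 measured glycosaminoglycan genes (rows, grouped by step) on the 4 SSC and 4 BCSP arrays (columns, numbered by experiment). Chondroitin chain polymerization and sulfate and sugar nucleotide supply are deep red on most arrays, Chpf and Chpf2 less so, and 9 genes are below 0 on all 8 arrays.

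The linker between core protein and chain was represented by 4 genes, of which B4galt7 and B3galt6 were active on all arrays. B4galt7, which adds the first galactose, scored 90.02, 82.0, 82.7 and 78.5 in SSCs of experiments 1 to 4 and 84.6, 87.5, 83.8 and 82.1 in BCSPs. B3galt6, which adds the next galactose, scored 92.2, 98.3, 72.1 and 90.8 in SSCs and 98.01, 98.6, 61.8 and 64.5 in BCSPs. Its scores thus overlapped between populations and were lowest on the BCSP arrays of experiments 3 and 4 and the SSC array of experiment 3. Xylt2, a xylosyltransferase that starts the linker, was far below 0 throughout, at -68.3, -87.0, -83.3 and -87.9 in SSCs and -74.6, -94.2, -97.7 and -96.0 in BCSPs. The other gene of that step, Xylt1, has no value here. B3gat3, which completes the linker with glucuronic acid, behaved differently from the rest and is described with the experiments.

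Genes that polymerize chondroitin were close to the top of the scale. Csgalnact1 and Csgalnact2, which add the first N-acetylgalactosamine and so commit a chain to chondroitin, were between 98.7 and 99.9 on every array. The synthase Chsy1 was between 99.6 and 99.99, and Chsy3 between 98.5 and 99.3. At this end of the scale the score can hardly move, so that a difference in mRNA between the populations would be compressed. The partner proteins Chpf and Chpf2, which associate with the synthases, varied more. Chpf scored 89.2, 84.1, -1.54 and 83.4 in SSCs of experiments 1 to 4 and 86.8, 89.7, 8.90 and 34.5 in BCSPs. Chpf2 scored 99.6, 95, 50.2 and 96.3 in SSCs and 99.7, 97.6, 72.0 and 73.4 in BCSPs. Both were lowest in experiment 3 in each population, and the populations overlapped.

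Among 9 genes that sulfate or epimerize chondroitin and dermatan chains, 5 were active on all arrays (Chst11, Chst12, Chst14, Chst15 and Dse). Chst11, the main chondroitin 4-O-sulfotransferase of cartilage, scored 99.6, 99.7, 99.6 and 99.8 in SSCs and 99.6, 99.8, 99.6 and 99.8 in BCSPs. By this probe set the score was at its upper end, and a second one varied, as described with the probe sets. The other 4-O-sulfotransferases differed from it in score, Chst12 averaging 84.3 ± 18.9 in SSCs and 79.5 ± 16.1 in BCSPs (SD, n = 4) and Chst13 averaging -31.2 ± 24.7 and -17.3 ± 10.8. Of the 6-O-sulfotransferases, Chst3 straddled the threshold, at 4.53 ± 22.5 and 5.94 ± 13.8. Chst7 was higher, at 71.8, 66.2, -8.95 and 69.0 in SSCs and 73.6, 68.1, 50.1 and 72.6 in BCSPs, with its lowest value in both populations in experiment 3. Dermatan sulfate is made by the epimerase Dse or its relative Dsel and by the 4-O-sulfotransferase Chst14. Dsel, outside the set, averaged 97.8 ± 1.11 in SSCs and 97.9 ± 1.95 in BCSPs. Dse scored 53.0, 44.7, 53.1 and 46.3 in SSCs and 32.6, 64.3, 60.2 and 45.3 in BCSPs, where the BCSP arrays gave both the lowest and the highest value. Chst14 averaged 66.6 ± 21.3 in SSCs and 71.5 ± 12.0 in BCSPs. Chst15, which adds a further sulfate to chondroitin, averaged 56.9 ± 25.6 and 61.8 ± 30.7, and Ust, a uronyl 2-O-sulfotransferase, -19.0 ± 27.2 and -13.2 ± 28.2.

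Genes supplying sulfate and sugar nucleotides were active on all arrays, 5 of 5. Slc26a2, which imports sulfate, scored 99.1, 98.8, 98.99 and 98.9 in SSCs of experiments 1 to 4 and 99.01, 99.5, 99.3 and 98.9 in BCSPs. Papss2, the PAPS synthase prominent in cartilage, scored 96.9, 97.7, 97.5 and 98.8 in SSCs and 96.8, 98.8, 97.7 and 99.2 in BCSPs. Papss1, the other PAPS synthase, scored 95.1, 94.5, 88.1 and 96.9 in SSCs and 94.4, 95.2, 88.7 and 96.2 in BCSPs. The populations overlapped for these genes, and Papss1 was lowest in experiment 3 in both. Ugdh, which makes UDP-glucuronic acid, averaged 98.4 ± 0.780 in SSCs and 98.9 ± 0.913 in BCSPs, and Slc35d1, which carries UDP sugars into the lumen where chains are built, 95.9 ± 3.29 and 96.99 ± 2.04.

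Promoters are shown for Chsy1, Chst11 and Papss2 because these genes stood above 90 on every array at the steps of chain synthesis, sulfation and sulfate supply, and because Papss2 has a pair of annotated starts. Each line gives the 250 bases before an annotated start, 5′ to 3′ on the gene's strand, which is the plus strand for all of them, from RefSeq on build GRCm38.p6. Capitals mark matches on either strand to GGGCGG, the GC box bound by Sp-type factors, and to AACAAT, a core motif of SOX family factors. No match of one motif overlapped the other.
Chsy1 chr7:66109242-66109491: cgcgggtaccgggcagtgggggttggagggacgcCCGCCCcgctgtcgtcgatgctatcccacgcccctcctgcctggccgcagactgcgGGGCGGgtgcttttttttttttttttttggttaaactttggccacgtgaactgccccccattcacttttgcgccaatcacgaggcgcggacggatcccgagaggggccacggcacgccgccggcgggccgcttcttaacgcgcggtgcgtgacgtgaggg
Chst11 chr10:82985247-82985496: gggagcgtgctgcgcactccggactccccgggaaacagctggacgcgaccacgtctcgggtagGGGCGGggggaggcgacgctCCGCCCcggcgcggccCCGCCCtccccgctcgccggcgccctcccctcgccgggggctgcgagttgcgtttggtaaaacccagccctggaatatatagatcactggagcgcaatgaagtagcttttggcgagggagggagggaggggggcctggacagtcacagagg
Papss2 chr19:32595465-32595714: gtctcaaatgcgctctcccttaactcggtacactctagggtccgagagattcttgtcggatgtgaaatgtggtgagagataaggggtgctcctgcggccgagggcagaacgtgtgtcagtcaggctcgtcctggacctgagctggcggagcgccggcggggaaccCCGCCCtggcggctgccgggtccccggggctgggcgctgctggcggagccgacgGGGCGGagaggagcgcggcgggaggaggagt
Papss2 chr19:32619755-32620004: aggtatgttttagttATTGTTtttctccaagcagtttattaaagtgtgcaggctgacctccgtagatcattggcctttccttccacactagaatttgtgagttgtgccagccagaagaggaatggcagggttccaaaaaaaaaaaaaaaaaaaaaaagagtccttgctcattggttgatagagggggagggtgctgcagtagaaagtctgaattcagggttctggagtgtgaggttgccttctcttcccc

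The Chst11 window held 3 GC boxes, that of Chsy1 held 2, and the upstream window of Papss2 held 2. The downstream Papss2 window held the motif AACAAT once, read on the opposite strand as ATTGTT, and no GC box. Windows were found for 33 of the 42 genes, 42 windows in all. GGGCGG lay in 57.1% of these windows, beside 32.7% of 32851 windows of all genes, and AACAAT in 4.76% (1 window each of Extl2 and Papss2), beside 9.42%. Median GC content was 63.6% in the windows of the glycosaminoglycan genes and 52.4% in all windows. Its part in the share of windows with a GC box was not tested. A match of letters is no evidence of binding, and the lack of one in a window this short says nothing of a factor.

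Genes of heparan sulfate lay on both sides of the threshold. Of 5 genes that start or extend the chain, 4 were active on all arrays. The polymerase is formed by Ext1 and Ext2. Ext1 scored 34.8, 80.8, 68.1 and 53.5 in SSCs of experiments 1 to 4 and 30.6, 64.3, 56.3 and 38.3 in BCSPs, where it was highest in experiment 2 and lowest in experiment 1 in both populations. Extl1 scored 96.6, 92.6, 91.5 and 85.2 in SSCs and 89.2, 91.1, 90.6 and 82.6 in BCSPs, and was lowest in experiment 4 in both. Extl2 scored 51.2, 47.2, 45.6 and 33.1 in SSCs and 47.3, 47.2, 44.8 and 30.1 in BCSPs, with the same low experiment. Extl1 and Extl2 are relatives of the polymerase with glycosyltransferase activity. Extl3, which helps to start the chain, was below 0 on every array and averaged -66.3 ± 9.25 in SSCs and -51.4 ± 35.7 in BCSPs.

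Heparan modification showed the most genes below threshold, 5 of 10, with 4 active on all arrays. Ndst2 and Ndst4, whose products remove acetyl groups from the chain and put sulfate in their place, averaged -32.1 ± 21.6 and -30.0 ± 34.1 in SSCs and -32.7 ± 22.2 and -31.7 ± 23.3 in BCSPs. The 6-O-sulfotransferases Hs6st1 and Hs6st2 averaged -93.3 ± 3.13 and -13.7 ± 8.29 in SSCs and -93.6 ± 1.75 and -19.0 ± 6.86 in BCSPs. Hs3st1, a 3-O-sulfotransferase, averaged -53.6 ± 18.5 and -54.0 ± 17.7. Of other 3-O-sulfotransferases measured outside the set, Hs3st3a1, Hs3st3b1 and Hs3st2 were active on all arrays and Hs3st6 on none. Hs3st3a1 averaged 74.7 ± 7.68 in SSCs and 70.8 ± 11.8 in BCSPs. Hs3st3b1 averaged 45.1 ± 10.3 and 44.4 ± 7.70, and Hs3st2 averaged 25.4 ± 8.997 and 22.1 ± 7.89. Hs3st6 averaged -19.25 in SSCs and -32.3 in BCSPs. Hs6st3, a 6-O-sulfotransferase outside the set, was below 0 on every array and averaged -40.3 in SSCs and -61.9 in BCSPs. For N-sulfation Ndst1 has no value here, so the step as a whole cannot be read from these genes. Active instead were the epimerase Glce, at 88.6 ± 3.96 in SSCs and 87.8 ± 4.56 in BCSPs, and the 2-O-sulfotransferase Hs2st1. Hs2st1 scored 72.0, 70.6, 65.0 and 72.3 in SSCs and 68.4, 73.9, 71.8 and 80.6 in BCSPs. Sulf1 and Sulf2 act outside the cell, where they strip 6-O-sulfate from finished chains. Sulf1 scored 91.7, 92.7, 95.1 and 96.2 in SSCs and 92.04, 92.5, 95.4 and 97.4 in BCSPs. Sulf2 scored 71.9, 80.7, 78.2 and 61.5 in SSCs and 74.9, 83.5, 84.5 and 75.1 in BCSPs. Populations overlapped for all of these genes, and Sulf1 differed within experiments by no more than -1.19 to 0.260 points, SSC minus BCSP.

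Of the hyaluronan synthases, Has1 and Has2 were active on all arrays and Has3 on none. Has2 scored 76.2, 80.7, 84.0 and 88.7 in SSCs of experiments 1 to 4 and 75.3, 85.6, 81.2 and 87.9 in BCSPs. Has1 scored 94.3, 32.9, 49.1 and 78.3 in SSCs and 91.7, 22.0, 71.7 and 94.9 in BCSPs. Has3 scored -92.3, -72.5, -87.0 and -71.1 in SSCs and -74.7, -89.0, -94.4 and -83.8 in BCSPs. Has2 varied less than Has1, which was lowest in experiment 2 in both populations.

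Other genes of the pathway gave context for these steps. Of 12 measured linker and chain genes outside the set, 8 were active on all arrays, among them Fam20b, a kinase of the linker xylose (98.9 ± 0.527 in SSCs and 99.1 ± 0.181 in BCSPs). Of 18 further genes of precursor supply, 14 were active on all arrays. Among 22 core proteins and hyaluronan-binding proteins, 17 were, with Acan, the large chondroitin sulfate core protein of cartilage, at 97.6 ± 0.250 and 98.0 ± 0 and Hapln1, which links it to hyaluronan, between 99.9 and 100 on all arrays. Keratan sulfate synthesis had 1 of 9 genes active throughout (B4galt1), and breakdown of glycosaminoglycans 5 of 14 (Hexa, Gusb, Ids, Hgsnat and Arsb). No gene of these lists passed the test between SSCs and BCSPs. The smallest p among them belonged to Idua, a lysosomal enzyme of heparan and dermatan breakdown, which averaged 34.0 ± 40.3 in SSCs and 70.9 ± 18.1 in BCSPs (p = 0.0833 and adjusted p = 1 by limma, exact permutation p = 0.114).

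No glycosaminoglycan gene was called different between SSCs and BCSPs. At an adjusted p under 0.05 limma called 0 of the 42, and 0% of all 18193 genes, with and without the experiment as a block. At an unadjusted p under 0.05 it gave 1 of the 42 (2.38%), which is Ndst3, beside 2.56% of all genes. With the block it gave 3 (7.14%), Ndst3, Ext1 and Sulf2, beside 5.22% of all genes. Groups that did not overlap were found for 0 of the 42 and for 1.34% of all genes. These shares were near those of the genes at large. SSCs scored higher in all 4 experiments for 4 genes (9.52%, beside 4.38%), namely Xylt2, Ext1, Extl1 and Ndst3. They scored lower in all 4 for 3 genes (7.14%, beside 8.03%), namely B3gat3, Chst7 and Sulf2.

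The design left room for differences of different size from gene to gene. The 95% confidence interval of SSC minus BCSP lay within 10 points of 0 for 15 of the 42 genes and within 20 points for 20, but reached beyond 30 points for 13. It was narrowest for genes near 99, where the scale ends, and widest for B3gat3 (-84.2 to 55.0 points). With the experiment as a block, 16 genes lay within 10 points and 24 within 20, while 9 reached beyond 30. The interval of B3gat3 then was -36.0 to 6.82 points and the widest was that of Extl3 (-53.1 to 23.3 points). Intervals with the block left out 0 for Ndst3 (6.54 to 56.6 points), Ext1 (1.78 to 22.0 points) and Sulf2 (-12.7 to -0.168 points), none of them adjusted for the number of genes. Of the 15 genes within 10 points without the block, 10 were those above 90 on all arrays, and a p above the threshold does not show that the populations are alike.

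**Figure D2:**
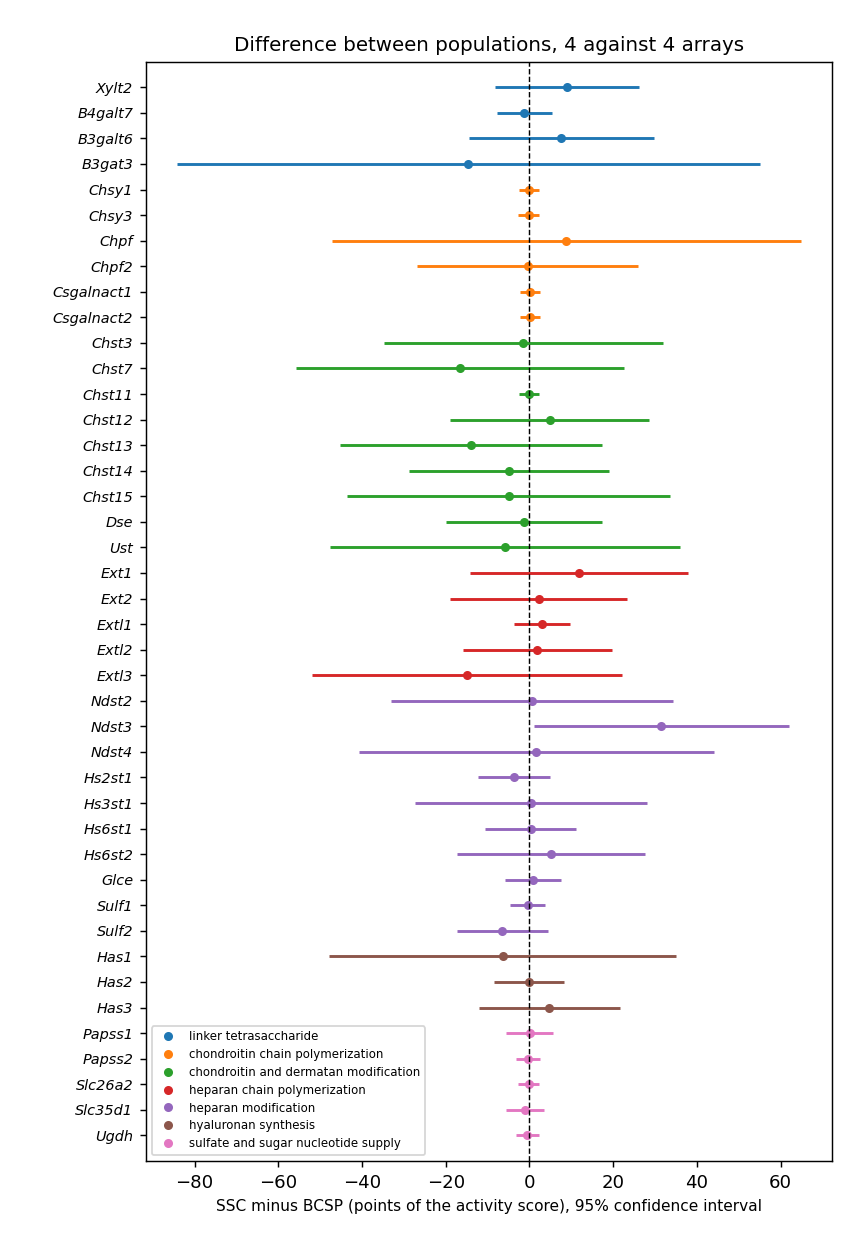
Mean score of SSCs minus mean score of BCSPs in points (dots) with the 95% confidence interval of the limma fit without the experiment block (lines) for the 42 genes, coloured by step, 4 arrays in each population. All intervals but that of Ndst3 cross 0, and they span from a few points for Chsy1 or Chst11 to over 100 for B3gat3 and Chpf.

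The gene furthest apart in the fit was Ndst3, which encodes an N-deacetylase and N-sulfotransferase of heparan sulfate. It scored -52.4, -4.02, -2.71 and 1.19 in SSCs of experiments 1 to 4 and -56.9, -44.2, -37.8 and -45.2 in BCSPs. The SSC array was the higher one in each experiment, although that of experiment 1 lay among the BCSP arrays. The difference was 31.6 points (95% interval 1.16 to 61.9), with p = 0.0434, adjusted p = 1 by limma and an exact permutation p of 0.114. Only 1 of its 8 scores exceeded 0, and its other probe set was below 0 on every array. That probe set went the other way, with the SSC array the lower one in each experiment. It averaged -69.2 in SSCs and -60.2 in BCSPs, a difference of -8.94 points (95% interval -27.7 to 9.87). Sulf2 differed by -6.43 points (-17.3 to 4.43), Xylt2 by 8.995 points (-8.15 to 26.1), Extl1 by 3.09 points (-3.56 to 9.74), Ext1 by 11.9 points (-14.1 to 37.9) and Chst13 by -13.9 points (-45.3 to 17.4), all with an adjusted p of 1. Chst13 scored -3.53, -44.5, -58.2 and -18.7 in SSCs and -3.53, -29.8, -16.4 and -19.5 in BCSPs. The direction of Ext1 depends on the probe set, since the mean of its probe sets gave -0.973 points.

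The signs of the differences were not alike in all steps, although no gene passed the test. In chondroitin and dermatan modification, 8 of 9 genes had the lower mean in SSCs, all but Chst12, with a median difference of -4.85 points. Chondroitin chain genes were split evenly, 3 and 3, and over chain and modification together the lower mean was that of SSCs in 11 of 15 chondroitin genes (median difference -0.398 points). In heparan chain synthesis and modification together, 11 of 15 had the higher mean in SSCs, with a median of 0.833 points. Over all genes, 55.8% had the lower mean in SSCs and the median difference was -0.998 points. The median for chondroitin and dermatan modification ranged from -11.6 to -0.0117 points when single arrays were left out, the former without the SSC array of experiment 1. Within experiments 1 to 4 it was 0.430, -1.82, -10.6 and 0.730 points, so that its sign was not shared by all of them. Without both arrays of experiment 3 it was -0.0367 points, and without those of experiment 1 it was -8.57 points. The genes of a step were measured on the same 8 arrays, so their signs are not independent. The heparan median over chain and modification was 2.76, 1.5, -0.25 and 3.05 points within experiments 1 to 4, and that of heparan modification alone ranged from -0.860 to 0.523 points when single arrays were left out.

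Differences were called between experiments. An F test of the experiment in limma called 3 of the 42 genes (7.14%) at an adjusted p under 0.05, beside 1.37% of all genes. Unadjusted p fell under 0.05 for 18 (42.9%), beside 26.7% of all genes. An experiment here holds the mice, the sort, the RNA amplification and the array together, and these cannot be told apart. The calls were Ext2 (adjusted p = 0.0361), Chst12 (adjusted p = 0.0460) and B3gat3 (adjusted p = 0.0481). Leaving out any single array, or both arrays of any experiment, left 0 of the 42 called, as did the fit without a trend. Over all genes the calls fell from 250 to between 0 and 6 in these settings.

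Ext2, the partner of Ext1 in the heparan polymerase, scored 95.2, 96.3, 67.9 and 98.7 in SSCs of experiments 1 to 4 and 97.7, 96.2, 62.0 and 93.4 in BCSPs. Chst12 scored 94.4, 91.4, 56.0 and 95.5 in SSCs and 93.97, 86, 56.5 and 81.3 in BCSPs. Both genes were lowest on the pair of arrays from experiment 3, which lay below all others. B3gat3 went the other way, at -31.9, -42.2, 72.3 and -21.4 in SSCs and -11.5, -23.4, 77.9 and -7.97 in BCSPs, above 0 in experiment 3 alone. The 3'-to-5' difference of actin was also highest on these arrays, while that of Gapdh was highest on the BCSP array of experiment 4, and their part in the calls was not tested. Without both arrays of experiment 3 the adjusted p was 0.998 for Ext2, 0.603 for Chst12 and 0.693 for B3gat3. With the mean of probe sets it was 0.856 for Ext2, 0.0492 for Chst12 and 0.922 for B3gat3. Experiment 3 had the lowest mean for 17 of the 42 genes (40.5%), beside 39.9% of all genes.

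The next genes in the test missed the threshold. Has1 had an adjusted p of 0.0594, Ext1 of 0.0681, Chpf of 0.0795, Papss1 of 0.0819 and Chst15 of 0.0965. Their patterns were not alike, since Has1 was lowest in experiment 2, Ext1 in experiment 1, Chpf and Papss1 in experiment 3, and Chst15 in experiment 4. Among the other lists, the F test called Slc35b2 (adjusted p = 0.0395) and Slc35b4 (adjusted p = 0.0481) of precursor supply. Slc35b2, which carries PAPS into the Golgi, scored 98.9, 99.1, 59.7 and 99.4 in SSCs and 99.4, 98.97, 61.4 and 87.8 in BCSPs, lowest in experiment 3 like Ext2 and Chst12.

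**Figure D3:**
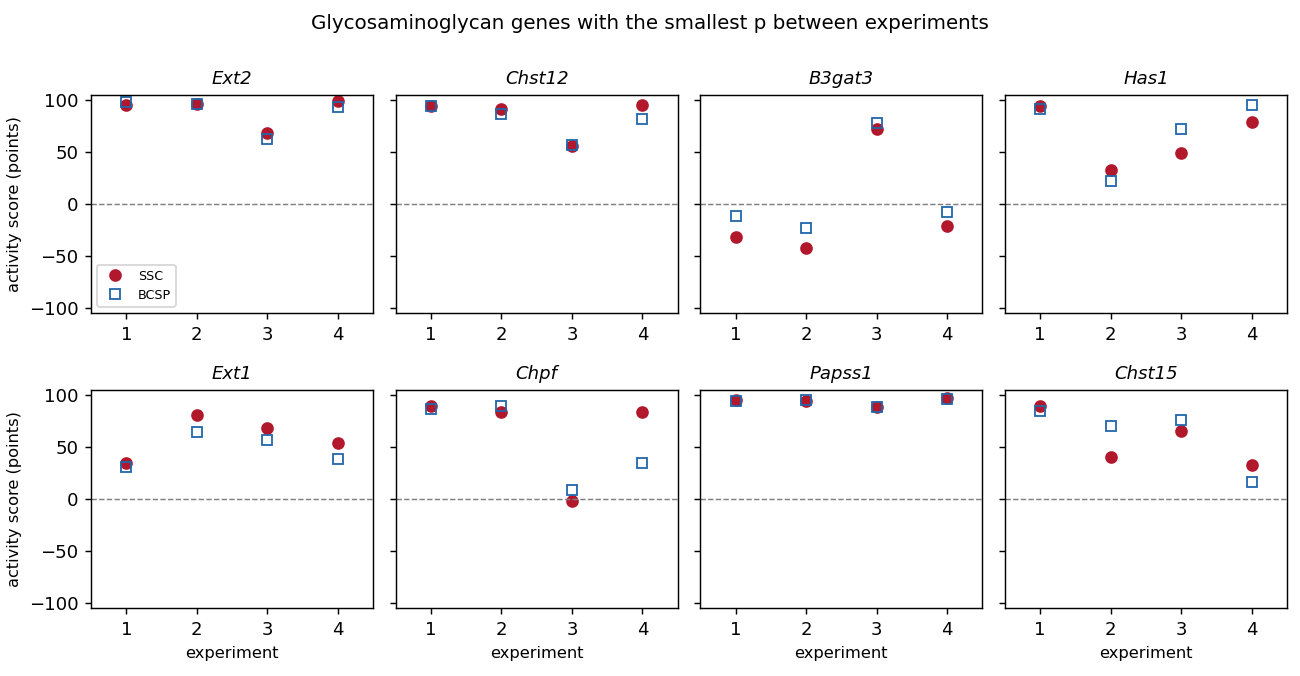
Activity score in points (vertical axis) by experiment (horizontal axis) for the 8 glycosaminoglycan genes with the smallest p between experiments, with SSC arrays as filled circles and BCSP arrays as open squares and the dashed line at 0. In most panels the circle and the square of an experiment lie close together while experiments differ, which follows from picking genes by this p. Chpf in experiment 4 is an exception (83.4 in SSCs and 34.5 in BCSPs). Ext2, Chst12 and B3gat3, with adjusted p of 0.0361 to 0.0481, have experiment 3 apart from the rest.

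Probe sets of one gene often disagreed. Of 24 genes with several probe sets, 6 had all of them active on all arrays, 12 had some and 6 had none. Taken one by one, 38 of the 79 probe sets (48.1%) were active on all arrays, beside 16.1% of all probe sets. Glce was active on all arrays by 1 of 3 probe sets, the others scoring -17.2 to 92.35 and -10.1 to 61.5. Hs2st1 was active by 1 of 4 probe sets, the others averaging -1.16, -10.3 and -56.7 over the 8 arrays. Ext2 and Sulf2 likewise had a probe set above 0 on all arrays and another above 0 on none. The further probe sets of Ext2 scored -25.8 to 79.2 and -51.1 to -1.12, and those of Sulf2 -24.5 to 45.8 and -79.1 to -19.8. The call of Ext2 between experiments rested on 1 of its 3 probe sets. The F test gave the others an unadjusted p of 0.731 and 0.249. Chst11 had a second probe set at 82.0, 85.0, -30.8 and 95.1 in SSCs and 96.1, 71.6, -36.2 and -5.99 in BCSPs, against at least 99.56 on every array for the first. By contrast, both probe sets of Csgalnact1, of Chst15, of Has2 and of Slc35d1, and all of Slc26a2 and B3galt6, were active throughout.

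B3gat3 was high in experiment 3 by 1 of its probe sets. The other one, whose source sequence is a RefSeq transcript, scored 16.0, -13.0, -93.5 and 61.6 in SSCs and -1.23, -12.8, -96.1 and -94.6 in BCSPs, near the bottom of the scale in experiment 3. Chsy3 and Ext1 each had a second probe set with the pattern of the first, above 0 on both arrays of experiment 3 and below 0 on the other 6. The pattern was held by 3 of the 79 probe sets (3.80%), beside 1.62% of all, and its inverse by 0, beside 0.955%. In the F test over all probe sets 2 of the 79 (2.53%) were called, those of Ext2 and Chst12, beside 0.995%.

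A difference between populations was seen in 1 probe set of Papss2, singled out after its values were seen. The lowest of its 4 probe sets by mean score was at 8.54, 35.7, 9.91 and 39.1 in SSCs of experiments 1 to 4 and at -1.60, -32.6, -14.1 and -20.4 in BCSPs. All SSC arrays were above 0 and all BCSP arrays below it. The difference was 40.5 points (95% interval 9.16 to 71.9), with p = 0.0168, adjusted p = 1 by limma over all probe sets and an exact permutation p of 0.0286, the smallest that 4 against 4 arrays allow. It was the 1 of 79 (1.27%) whose groups did not overlap, beside 1.43% of all probe sets. Unadjusted p fell under 0.05 for 2 of the 79 (2.53%), this one and 1 of Sulf2, beside 2.4%. The remaining 3 probe sets of Papss2 were above 0 on all arrays, and their groups overlapped.

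**Figure D4:**
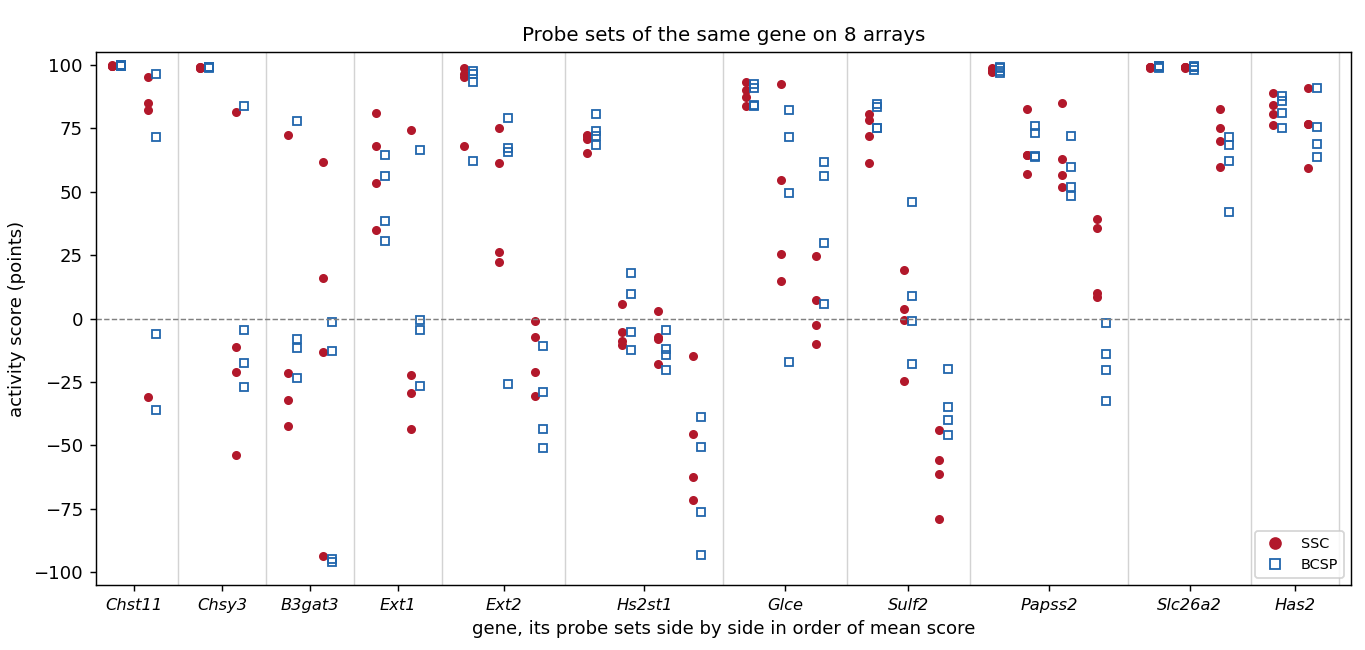
Activity score in points (vertical axis) of each probe set of 11 glycosaminoglycan genes, side by side in order of mean score, with SSC arrays as filled circles and BCSP arrays as open squares and the dashed line at 0. Probe sets of Slc26a2 and Has2 stay above 0, those of Chst11, Ext2, Hs2st1 and Sulf2 fall apart, and the lowest of Papss2 has circles at 8.54 to 39.1 and squares at -32.6 to -1.60.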

How the data were processed

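RNA of the sorted cells was amplified in repeated rounds and hybridized to Affymetrix mouse arrays. The deposited activity score was made by the authors on Gene Expression Commons, which normalizes each array against a reference of public arrays and sets a StepMiner threshold for every probe set. The summary of probes into probe sets is not stated in the sources at hand. The score was used as deposited, without folds.

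Probe sets were named by the platform annotation (34945 with 1 symbol, 932 with several and left out, 9160 unlisted), and 64 controls were dropped. The genes and lists described were chosen with earlier results of these data known. Genes given array by array are, per step, the active ones with the highest and lowest mean, the 6 with the largest moderated statistic, those called between experiments, those whose probe sets disagree, and a few chosen for their role (Has1, Has2, Has3, Chst11, Papss1, Papss2, Slc26a2). Others were named after their values were seen. Of the other lists, counts and examples are given.

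Populations were compared on the score with limma 3.58.1 (R 4.3.3, a linear fit with trended eBayes), with Benjamini-Hochberg adjustment over 18193 genes at 0.05, and by an exact two-sided permutation test over 70 assignments. The F test had population and experiment as terms. Alternatives were quantile normalization, centring, the mean of probe sets or all of them, filters, no trend, array weights, the methods' t-test, the experiment as block, and leaving out arrays. Fits were tested on simulated scores, with shifts given only to genes of middle score and small spread, and without the limits of the scale. Their outcome does not carry over to genes near its ends. The number of arrays limits the precision. For the BCSP array of experiment 2 the title and description give different numbers, and the description was used. The labels' experiment numbers were taken to pair the arrays, since deviations from group means correlated at 0.399, 0.177, 0.572 and 0.183 in experiments 1 to 4.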

Additional observations from a re-analysis of the deposited data

Results flagged for a closer look

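Each of the 84 groups of 4 arrays (42 genes in 2 populations) was examined for a single array standing apart from the other 3. In 11 groups (13.1%) such a case was found. For independent groups chance gives about 5%, but these groups share the same 8 arrays and are not independent. Over all named genes the share was 6.90% of 36386 groups. The causes were not tested. In experiment 3 the SSC array was apart for Chpf (-1.54, others 83.4 to 89.2), Chpf2 (50.2, others 95 to 99.6), Chst7 (-8.95, others 66.2 to 71.8), Chst12 (56.0, others 91.4 to 95.5) and Ext2 (67.9, others 95.2 to 98.7). The BCSP array of experiment 3 was apart for Ext2 (62.0, others 93.4 to 97.7) and B3gat3 (77.9, others -23.4 to -7.97). Thus 7 of the 11 cases (63.6%) came from experiment 3, beside 34.6% of those over all genes. The actin controls also stood apart in that experiment, and the Gapdh controls did not. In experiment 1 the BCSP array was apart for Xylt2 (-74.6, others -97.7 to -94.2) and for Csgalnact2 (99.1, others 99.8 to 99.9), the latter by less than 1 point. The SSC array of experiment 1 was apart for Ndst3 (-52.4, others -4.02 to 1.19), the gene with the largest statistic between populations. In experiment 4 the BCSP array was apart for Extl2 (30.1, others 44.8 to 47.3).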

How the results depend on the processing

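No glycosaminoglycan gene was called between SSCs and BCSPs under any of 23 alternatives, the smallest adjusted p being 0.928. Pairing the arrays with the experiment as a replicate block left 0 called, gave 3 at an unadjusted p under 0.05 and changed no call. The methods' t-test gave 0 of the 42 at an unadjusted p under 0.05. The count called between experiments, 3, was 1 with the mean of probe sets and 0 without trend. It was 5 and 6 with filters of at least 1 and at least 4 arrays above 0. Over all genes tested, 250 were called, with 131, 0, 770 and 1040 under these settings in the same order. Without both arrays of each experiment in turn, an alternative chosen after seeing the data, 0 of the 42 and 0 of all genes were called. With single arrays left out, 0 of the 42 and 0 to 6 of all genes were called. Leaving out single arrays gave 27 to 29 genes active on all arrays, and the lowest probe set of each gene 15. Ext1 turned from 11.9 points higher in SSCs to -0.973 with the mean of probe sets. The median difference moved by more than its spread for the linker with the mean of probe sets (6.95 points, against 3.21). It also did so for chondroitin chains with centring (0.428, against 0.005). For chondroitin and dermatan modification it did so without the SSC array of experiment 1 (-11.6, against -4.85). For heparan chains it did so without the SSC array of experiment 4 (5.17, against 2.21). With any other single array left out both stayed within the spread, reaching -0.0117 and 0.332 points. The causes were not tested.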
